A study of Mus musculus with 15 samples.

Results

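Collagens and laminins are the main structural proteins of the extracellular matrix. All protein-coding mouse genes whose symbol is Col, a number, a and a number, or Lam, the letter a, b or c and a number, were taken, which gave 55 genes, and each of them was among the 19475 genes of the deposited table. By the protein each encodes, 11 are fibrillar collagens, 17 belong to the basement membrane (6 type IV collagens and 11 laminins) and 27 are other collagens. A mean normalized read count of at least 5 over the embryos was reached by 54 of the 55, and Col10a1, a network collagen of hypertrophic cartilage, did not reach it (mean 3.24) and was not tested.

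The samples are 15 C57BL/6J mouse embryos at E16.5, with 5 WT embryos, 5 embryos heterozygous for the Tbr1 K228E knock-in (labelled Tbr1 hetero) and 5 homozygous embryos (Tbr1 homo). Each genotype comprised 3 females, numbered 1 to 3, and 2 males, numbered 4 and 5. The knock-in places the missense change in Tbr1, a T-box transcription factor of postmitotic cortical neurons, in every cell, and the neomycin cassette of the line was removed with a protamine-Cre mouse of the same strain. RNA-Seq was bulk, and the tissue is given as forebrain in the study and as whole brain in the description of the series. The normalized read counts, which are reads divided by a size factor per embryo, summed to between 30.5 and 31.8 M (M for mega) in each embryo, and Tbr1 itself lay between 2097 and 4871 in WT, 4738 and 8543 in Tbr1 hetero and 7148 and 16015 in Tbr1 homo embryos. The gene table does not separate the alleles, so that the level of Tbr1 does not check the mutation.

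Fibrillar collagens are secreted as trimers that assemble into fibers. In and around the brain, types I and III among them are made mainly by fibroblasts of the meninges and of large vessels. Type IV collagen forms the sheet of the basement membrane together with laminins, which are trimers of an alpha, a beta and a gamma chain, and this sheet covers the pial surface and surrounds blood vessels. Laminins on the pial surface anchor the end-feet of radial glia, and the other collagens decorate fibers, form fine networks or span the plasma membrane.

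The starts of a few members are shown first, because the groups that they belong to behaved differently below. The sequences are from the RefSeq promoter table of GRCm38.p6, in which 40 of the 55 members had an entry, in 44 windows. The stretches shown run from 250 bases before to 30 bases after the start, 5′ to 3′ on the strand of the gene, and capitals mark matches to the TATA motif TATAAA, the box CCAAT or the GC box GGGCGG on either strand. Col1a2 (plus strand, chr6:4505368-4505647) and Col3a1 (plus strand, chr1:45311288-45311567) encode chains of types I and III and followed the meningeal marker genes across embryos. Col11a1 (plus strand, chr3:114030290-114030569) and Col5a3 (minus strand, chr9:20815038-20815317) are fibrillar members that did not pass that test. Of the 250 bases before the start of Col1a2, 127 lie in an exon of a longer GENCODE transcript of Col1a2, whereas those of the other 3 lie in no annotated exon.
Col1a2: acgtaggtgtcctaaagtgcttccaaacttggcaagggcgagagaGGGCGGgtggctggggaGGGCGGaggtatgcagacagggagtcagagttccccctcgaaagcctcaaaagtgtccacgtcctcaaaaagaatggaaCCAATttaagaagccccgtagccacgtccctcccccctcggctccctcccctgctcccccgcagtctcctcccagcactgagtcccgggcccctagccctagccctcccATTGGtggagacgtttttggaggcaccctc
Col3a1: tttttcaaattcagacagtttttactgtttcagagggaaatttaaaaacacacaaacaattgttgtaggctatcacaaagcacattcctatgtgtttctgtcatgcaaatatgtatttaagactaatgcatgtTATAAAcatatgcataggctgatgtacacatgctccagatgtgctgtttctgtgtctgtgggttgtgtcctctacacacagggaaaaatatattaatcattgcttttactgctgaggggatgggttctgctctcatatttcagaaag
Col11a1: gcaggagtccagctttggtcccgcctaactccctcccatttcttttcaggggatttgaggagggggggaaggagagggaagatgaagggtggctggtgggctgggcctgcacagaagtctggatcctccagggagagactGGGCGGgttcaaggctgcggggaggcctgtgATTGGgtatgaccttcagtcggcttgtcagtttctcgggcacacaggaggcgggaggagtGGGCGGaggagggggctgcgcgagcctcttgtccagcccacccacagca
Col5a3: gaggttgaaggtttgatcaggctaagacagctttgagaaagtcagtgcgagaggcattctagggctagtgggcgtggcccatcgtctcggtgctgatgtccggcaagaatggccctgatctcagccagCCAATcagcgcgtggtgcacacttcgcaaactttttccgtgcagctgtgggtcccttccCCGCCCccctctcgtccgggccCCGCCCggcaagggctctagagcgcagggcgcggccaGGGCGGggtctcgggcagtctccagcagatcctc
The Col1a2, Col11a1 and Col5a3 stretches held 61.1, 62.9 and 63.2% G and C and each had GGGCGG and CCAAT, whereas the Col3a1 stretch held 36.1% and had TATAAA alone. Shares were counted over the whole windows of 300 bases, which reach further past the start than the 280 bases shown. Among the 44 windows of members, GGGCGG on either strand was present in 59.1%, against 35.7% of all 32851 windows, CCAAT was present in 31.8 against 37.4%, and TATAAA in 11.4 against 13.6%. The T-box motif GGTGTGA was found in 1 of the 44 windows, that of Col11a2 (2.27%), against 3.98% of all windows. A match is a description of letters and not a bound site.

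Col9a1, a chain of the fibril-associated collagen IX, is shown because it was the sole member whose embryos did not overlap between WT and Tbr1 homo. It has a pair of starts, at the 5′ end of the gene (plus strand, chr1:24177360-24177639) and within the gene (chr1:24194953-24195232), where 16 of the bases before the start lie in an exon of Col9a1. The former had none of the 3 motifs, and the latter had CCAAT, in capitals.
Col9a1, outer start: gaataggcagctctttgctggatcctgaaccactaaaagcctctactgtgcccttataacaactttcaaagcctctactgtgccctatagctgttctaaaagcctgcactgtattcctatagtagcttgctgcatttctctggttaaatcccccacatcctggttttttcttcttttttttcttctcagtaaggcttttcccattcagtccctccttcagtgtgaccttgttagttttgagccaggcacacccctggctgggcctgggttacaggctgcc
Col9a1, inner start: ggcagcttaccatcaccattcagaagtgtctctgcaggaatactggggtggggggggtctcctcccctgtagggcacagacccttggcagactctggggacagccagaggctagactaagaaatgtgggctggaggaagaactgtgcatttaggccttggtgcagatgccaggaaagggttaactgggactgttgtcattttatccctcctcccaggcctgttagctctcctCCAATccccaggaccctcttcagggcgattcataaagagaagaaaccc

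The 6 type IV collagen genes lie head to head in pairs, and the stretches between or across their starts are shown because the pairs were compared with each other. The starts of Col4a1 (minus strand) and Col4a2 (plus strand) overlap by 22 bases, chr8:11312805-11312826, all in capitals on the plus strand. The 71 bases between the starts of Col4a4 and Col4a3 are the capitals within chr1:82586820-82586951, given on the strand of Col4a4, which is the minus strand, with the first exon of Col4a3 to the left and that of Col4a4 to the right. The starts of Col4a5 and Col4a6 on chromosome X are 1343 bases apart, and that stretch is not shown.
Col4a1 and Col4a2: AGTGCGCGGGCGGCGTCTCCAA
Col4a4 and Col4a3: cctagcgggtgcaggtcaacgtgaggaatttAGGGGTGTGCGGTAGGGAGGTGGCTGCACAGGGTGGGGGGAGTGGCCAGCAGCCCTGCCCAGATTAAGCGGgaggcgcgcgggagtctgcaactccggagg

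Levels between genes were compared per kilobase of exon, as the mean normalized read count of the 15 embryos divided by the length of all annotated exons. Col4a1 and Col4a2, which form the ubiquitous type IV trimer of vessels and pia, were the highest members, at 966 and 774 per kilobase. Col3a1, Col1a1 and Col1a2 followed among the fibrillar genes at 386, 375 and 269, Lamc1, the common laminin gamma chain, was at 333, and Col9a3 and Col9a2, chains of collagen IX, were at 326 and 291. The cartilage collagen Col2a1 was at 166 per kilobase, and Col4a3 and Col4a4, chains known from kidney, were at 2.52 and 6.53. Col17a1, a transmembrane collagen of hemidesmosomes, was at 2.77.

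Across the 15 embryos, the members varied more than most genes. The SD of log2(normalized read count + 1) had a median of 0.46 over the 54 members and of 0.15 over all 16507 genes tested. It exceeded 1 in 8 members, against 3.20% of all genes tested. The normalized read counts of the 11 fibrillar genes together ranged from 5434 to 38964 between embryos (7.17-fold), those of the 17 basement membrane genes from 14260 to 33113 (2.32-fold), and those of the 27 other genes from 7421 to 20581 (2.77-fold). The lowest value of each of these 3 sums was that of WT 3, and Tbr1 homo 3 and 4 were the next lowest in each.

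Those 3 embryos also stand apart in marker genes that are no members, which is given here before the comparisons. The mean log2 value of 14 marker genes of the meninges (the meningeal score) was 4.01 in WT 3, 4.46 in Tbr1 homo 3 and 4.74 in Tbr1 homo 4, and between 6.60 and 8.73 in the other 12 embryos. In normalized read counts the 14 genes summed to between 1271 and 7851 in WT, 2947 and 7995 in Tbr1 hetero and 1834 and 9312 in Tbr1 homo embryos, and 3 of the 14, Slc22a6, Foxc2 and Twist1, were at 0 in at least 1 embryo. The difference of the score between genotypes did not pass a test (exact permutation p = 0.770, 0.659 and 0.294 for Tbr1 hetero against WT, Tbr1 homo against WT and Tbr1 homo against Tbr1 hetero, two-sided). The same 3 embryos had the lowest scores of the endothelial, pericyte, choroid plexus and cartilage lists as well. In Tbr1 hetero, both males (6.60 and 7.13) had a lower meningeal score than the 3 females (8.11 to 8.58).

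The remaining lists describe the tissue. The 10 forebrain markers were present in every embryo, with sums between 23320 and 59073. The 17 Hox genes, which mark hindbrain and spinal cord, summed to between 8.20 and 3276 in WT, 4.87 and 3961 in Tbr1 hetero and 7.77 and 576 in Tbr1 homo embryos, and each of them was at 0 in at least 1 embryo. The 8 cartilage genes summed to between 45.9 and 213, the 6 genes of skeletal muscle to between 109 and 277, the 8 endothelial genes to between 5093 and 10162, the 7 pericyte genes to between 6465 and 9360, the 7 choroid plexus genes to between 942 and 25102, and the 5 blood genes to between 28765 and 83148. In bulk tissue, fewer cells of a type and less RNA per cell cannot be told apart.

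The relation of the members to the meningeal score was tested over the 12 embryos outside the 3 low ones, since the 3 form a separate cluster. Of the 54 members, 22 correlated positively with the score and 0 negatively (Pearson's r, permutation test with 100000 resamples, Benjamini–Hochberg over 16493 genes, threshold 0.05). A negative r was found in 14 members, each with an unadjusted p over 0.05. Among all genes the positive share was 3.3%. The median r was 0.70 over the members and -0.02 over all tested genes. By class, the calls were 5 of 11 fibrillar, 11 of 17 basement membrane and 6 of 26 other members. The correlation was called for 25 members on deviations from the genotype means, and for 10 without the 2 embryos farthest from the median score. These 10 were 4 fibrillar, 3 basement membrane and 3 other members. Over all 16493 genes, positive calls numbered 545 in the main test, 872 on deviations and 142 without the 2 embryos. The resamples of the deviations were not kept within genotypes, so their p-values can be too small. The score of the endothelial and pericyte genes had the same extremes among the 12, Tbr1 hetero 4 lowest (9.29) and Tbr1 homo 5 highest (9.95). The meningeal scores of those embryos were 6.60 and 8.73. Correlations of members with the vascular score were not tested, so a relation to meninges and to vessels cannot be told apart here.

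**Figure D1:**
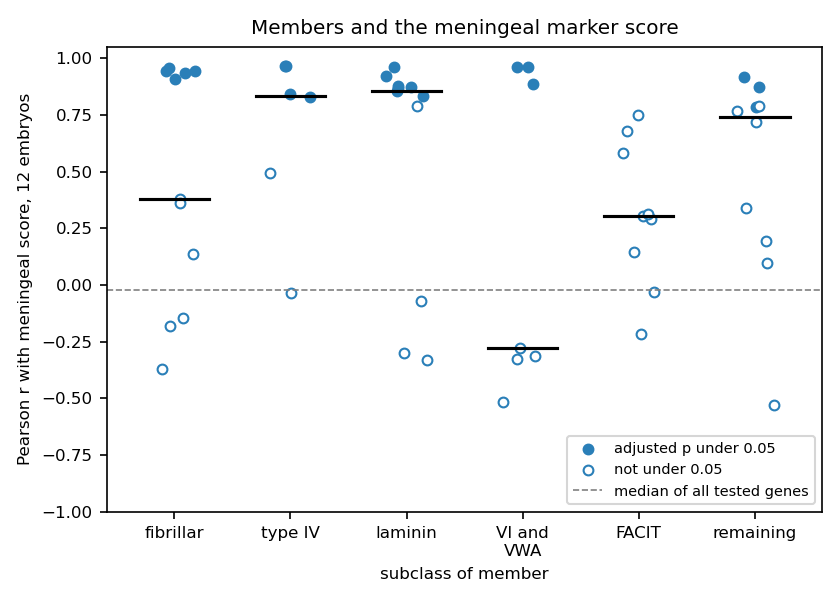
Pearson's r of each member with the meningeal marker score over 12 embryos (y axis), by subclass (x axis). Each point is a gene, filled where the adjusted p was under 0.05, the bars are subclass medians and the dashed line is the median of all tested genes. Of the fibrillar members 5 lie above 0.9 and 6 below 0.4, whereas no FACIT member was called.

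Types I and III and 2 of the 3 type V chains of the fibrillar class followed the score. Col1a1 had r = 0.91 and rho = 0.96, Col1a2 and Col3a1 each had r = 0.95 and rho = 0.96, and the adjusted p of r was 0.00153 in each of them, where 1e-05 is the smallest p that the resamples allow. Without the 2 farthest embryos r was 0.84 in Col1a1 (adjusted p = 0.140, permutation), 0.91 in Col1a2 (adjusted p = 0.0355) and 0.94 in Col3a1 (adjusted p = 0.0142). Col5a1 and Col5a2, whose chains nucleate type I fibers, had r = 0.93 and 0.96. The 6 others, which are Col2a1, Col11a1, Col11a2, Col5a3, Col24a1 and Col27a1, had r between -0.37 and 0.38, and none passed the test.

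Col1a1 showed the largest spread of all members (SD 2.96 on the log2 scale). Its normalized read counts were 10912, 4042, 23.4, 1676 and 1758 in WT 1 to 5, 3298, 3077, 3392, 664 and 1103 in Tbr1 hetero 1 to 5, and 2223, 1100, 22.3, 16.46 and 3561 in Tbr1 homo 1 to 5. The 3 embryos of low meningeal score lay below 25 and the other 12 at 664 or more, and the genotypes overlapped. Col3a1 was at 8865, 7087, 83.8, 2852 and 2731 in WT, at 5379, 6452, 6352, 1427 and 1835 in Tbr1 hetero, and at 3200, 2608, 109, 52.3 and 7787 in Tbr1 homo embryos. Col1a2 ranged from 140 to 9866 over the 15 embryos, again with the 3 embryos lowest. The chains of the type I trimer were not lower by equal factors in those embryos. Per kilobase, Col1a1 was at 0.268, 0.302 and 0.217 of Col1a2 in WT 3, Tbr1 homo 3 and Tbr1 homo 4, and between 0.928 and 2.09 in the others. In contrast, Col2a1 lay between 1224 and 2038 in all 15 embryos.

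**Figure D2:**
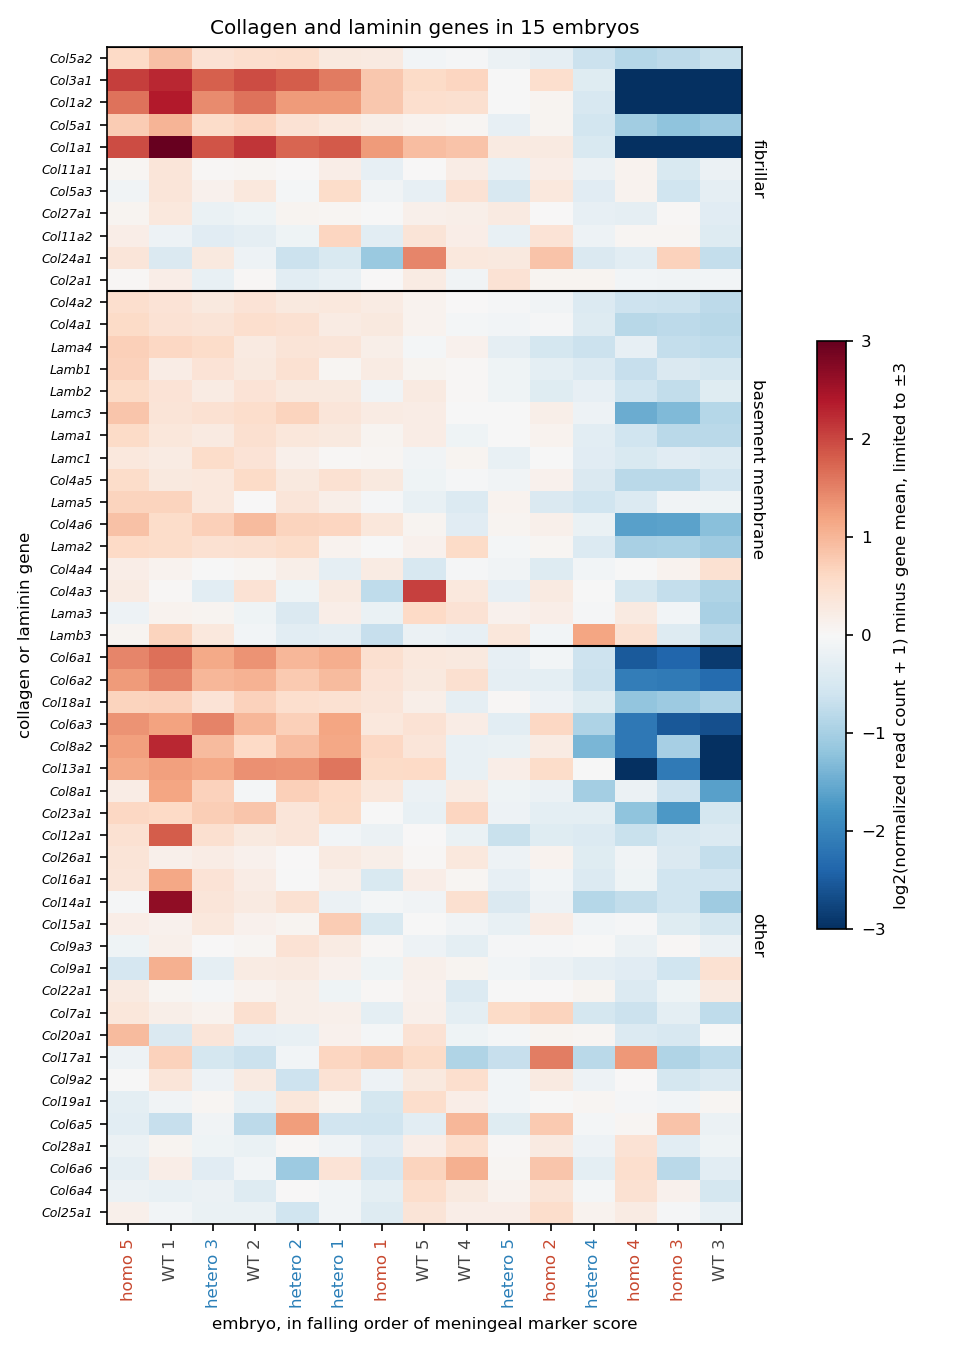
Log2(normalized read count + 1) of 53 of the 54 tested members (rows, by class and then by r with the meningeal score) in the 15 embryos (columns, in falling order of that score), minus the mean of each gene. The 3 embryos at the right, Tbr1 homo 4, Tbr1 homo 3 and WT 3, hold the 3 lowest values in 20 of the 54 tested members. Upper rows such as Lama4 and Col8a2 are not among these.

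The 3 embryos held the 3 lowest of the 15 values in 20 of the 54 members, against 3.41% of all genes tested. These members comprised 5 fibrillar, 9 basement membrane and 6 other genes. The same held for 11 of the 14 meningeal markers, by whose mean the 3 embryos were picked. In the basement membrane class the members were Lama1, Lama2, Lamb1, Lamc1, Lamc3, Col4a1, Col4a2, Col4a5 and Col4a6. In the other class they were Col6a1, Col6a2 and Col6a3, which form the beaded microfibrils of type VI, Col18a1, a basement membrane proteoglycan, and the transmembrane collagens Col13a1 and Col23a1.

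Among the laminins, 7 of 11 followed the score over the 12 embryos. Lama4, the alpha chain of vessel laminin, had r = 0.96, Lamb1 r = 0.92, Lamb2 r = 0.88, Lamc3 and Lama1 r = 0.87, Lamc1 r = 0.86 and Lama5 r = 0.83. Without the 2 farthest embryos, Lama4 was the 1 laminin that still passed (adjusted p = 0.0269), and the adjusted p of the 6 others lay between 0.0914 and 0.412 (permutation). Lama2 was just outside the threshold at r = 0.79 (adjusted p = 0.0581, permutation), and Lama3 and Lamb3, an alpha and a beta chain of epithelia, had r = -0.30 and -0.33. Lamc1 was at 3205, 3572, 2032, 2877 and 2508 in WT, at 2774, 3002, 3922, 2145 and 2323 in Tbr1 hetero, and at 2800, 2695, 2128, 1976 and 3345 in Tbr1 homo embryos. Its range was 1.98-fold, far narrower than that of Col1a1, and the genotypes overlapped. Lamb1 per kilobase was between 0.497 and 0.788 of Lamc1 in all 15 embryos, and Lamb2 was between 0.811 and 1.21 of Lamb1.

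Of the type IV collagens, Col4a1 had r = 0.96 with the score, Col4a2 r = 0.97, Col4a5 r = 0.84 and Col4a6 r = 0.83, whereas Col4a3 (r = -0.03) and Col4a4 (r = 0.50) did not pass. Without the 2 farthest embryos Col4a1 and Col4a2 passed and Col4a5 and Col4a6 did not (adjusted p = 0.197 each, permutation). Col4a1 was at 9270, 9712, 3876, 6626 and 7318 in WT, at 8077, 9478, 8961, 5244 and 6504 in Tbr1 hetero, and at 8342, 6670, 3965, 3842 and 10261 in Tbr1 homo embryos. The lowest of these values was that of Tbr1 homo 4 and the highest that of Tbr1 homo 5, within the same genotype.

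The head-to-head pairs were compared over the same 12 embryos, as 3 relations. Col4a1 and Col4a2, whose transcripts overlap by the 22 bases shown above, correlated with r = 0.97 and rho = 0.91 (permutation p = 1e-05 and 5e-05, adjusted over the 3 pairs 3e-05 and 0.00015), and with r = 0.95 without the 2 farthest embryos. Col4a2 ranked 10 among all tested genes by its r with Col4a1, and their ratio per kilobase stayed between 1.07 and 1.39 in all 15 embryos. Reads in the overlap cannot be told apart without strand. Col4a5 and Col4a6 correlated with r = 0.90 and rho = 0.90 (permutation p = 2e-05 and 0.00015, adjusted 3e-05 and 0.000225), with r = 0.91 without the 2 farthest, and Col4a6 ranked 25. The ratio of Col4a5 to Col4a6 per kilobase was 5.39, 5.79 and 5.93 in the 3 embryos of low score and between 2.53 and 4.08 in the others, so Col4a6 was lower by a larger factor there.

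Col4a3 and Col4a4, whose starts lie 72 bases apart, did not follow each other. Their r was -0.67 and rho -0.49 (permutation p = 0.0105 and 0.108, adjusted 0.0105 and 0.108), and r was -0.16 (permutation p = 0.655) without the 2 farthest embryos, so the relation rests on those. Col4a3 was at 22.0, 29.5, 11.0, 27.1 and 92.0 in WT 1 to 5 and between 12.4 and 26.3 in the 10 mutant embryos. Col4a4 was lowest in the WT embryo in which Col4a3 was highest, at 49.0, and lay between 51.8 and 94.7 in all others.

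**Figure D3:**
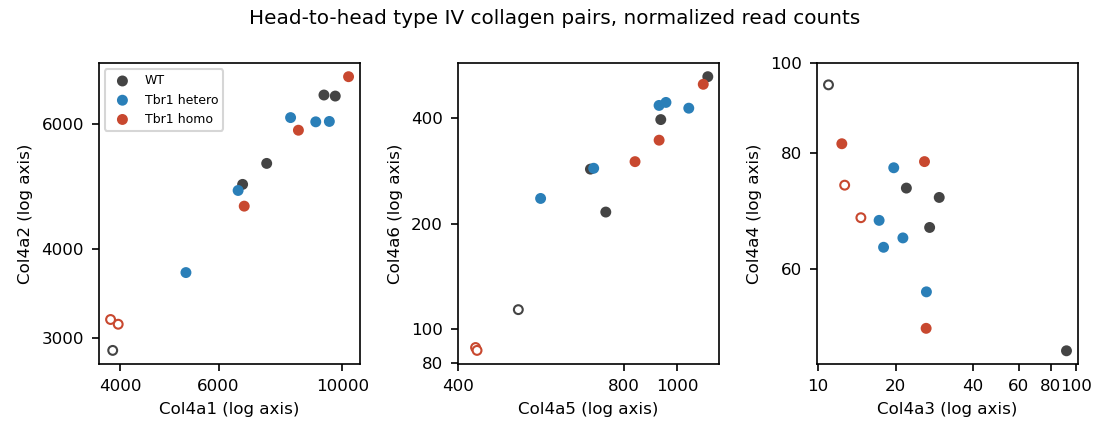
Normalized read counts of the genes of each head-to-head type IV pair against each other (log axes), a point per embryo, coloured by genotype, with open points for the 3 embryos of low meningeal score. Col4a1 with Col4a2 and Col4a5 with Col4a6 fall along a line, and Col4a3 with Col4a4 do not.

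In the other class, 3 of the 7 type VI and von Willebrand domain members followed the score, with r = 0.96 for Col6a1 and Col6a2 and 0.89 for Col6a3, whereas Col6a4, Col6a5, Col6a6 and Col28a1 had r between -0.52 and -0.28. Col6a1 was at 1714, 1398, 73.4, 667 and 676 in WT, at 1155, 1082, 1198, 354 and 461 in Tbr1 hetero, and at 758, 515, 104, 94.2 and 1512 in Tbr1 homo embryos. Its values fell below 110 in the 3 embryos and were above 350 in all others. Col18a1, Col8a1 and Col8a2 passed as well, with r = 0.92, 0.79 and 0.88, but not without the 2 farthest embryos (adjusted p = 0.139, 0.563 and 0.168, permutation), whereas Col6a1, Col6a2 and Col6a3 did. None of the 9 fibril-associated collagens with interrupted triple helices (FACIT) passed by Pearson's r, and Col12a1 came closest (r = 0.75, adjusted p = 0.0758, and rho = 0.93, adjusted p = 0.00305, permutation).

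No member passed the test for a difference between genotypes. In Tbr1 hetero against WT, 0 of 54 members had an adjusted p under 0.05 (limma, Benjamini–Hochberg over 16507 genes), as did 0% of all genes. Unadjusted p-values under 0.05 were found for 2 members, Col9a1 and Col9a3, against a background of 1.79%, and no member was without overlap between the genotypes, against 0.26% of all genes. The median log2 fold change of the members was 0.01, with 29 higher and 25 lower, beside -0.00 for all genes. By class the medians were -0.03 (fibrillar), 0.05 (basement membrane) and 0.03 (other).

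In Tbr1 homo against WT, 0 of 54 members passed by limma, where 0.127% of all genes did. At an unadjusted p under 0.05 there was 1 member, Col9a1, against 3.23% of all genes, and the same gene was the sole member without overlap, against 0.594% of all genes. The median log2 fold change was -0.16, with 14 members higher and 40 lower, and -0.00 over all genes. The class medians were -0.20, -0.16 and -0.20 for fibrillar, basement membrane and other members. In Tbr1 homo against Tbr1 hetero, again 0 of 54 passed by limma, beside 0.0788% of all genes, 0 had an unadjusted p under 0.05, beside 3.3%, and 0 were without overlap, beside 0.878%. The median was -0.19, with 14 higher and 40 lower, and the class medians were -0.04, -0.22 and -0.18. Both comparisons with WT share the WT embryos.

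These medians moved with the 3 embryos of low meningeal score, of which 1 is WT and 2 are Tbr1 homo. Without them, the median of the members was -0.16 in Tbr1 hetero against WT (11 higher, 43 lower), -0.09 in Tbr1 homo against WT (19 higher, 35 lower) and 0.09 in Tbr1 homo against Tbr1 hetero (40 higher, 14 lower), and 0 members passed in each (limma, adjusted p). All 11 fibrillar members were then lower in Tbr1 hetero than in WT and higher in Tbr1 homo than in Tbr1 hetero, the reverse of the majority for the latter in all 15 embryos (8 of 11 lower). Without WT 3 alone, the median in Tbr1 homo against WT was -0.36. In that fit 11 members had an unadjusted p under 0.05, as did 791 of all 16507 genes, and 0 members passed the adjusted threshold. With all 15 embryos, 1 member and 534 genes had such a p. The fit without WT 3 keeps both Tbr1 homo embryos of low meningeal score but no WT embryo of low score. With the meningeal score as a covariate the medians were -0.06, -0.02 and 0.06, and with the score of the 15 endothelial and pericyte genes they were 0.01, 0.01 and 0.03.

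**Figure D4:**
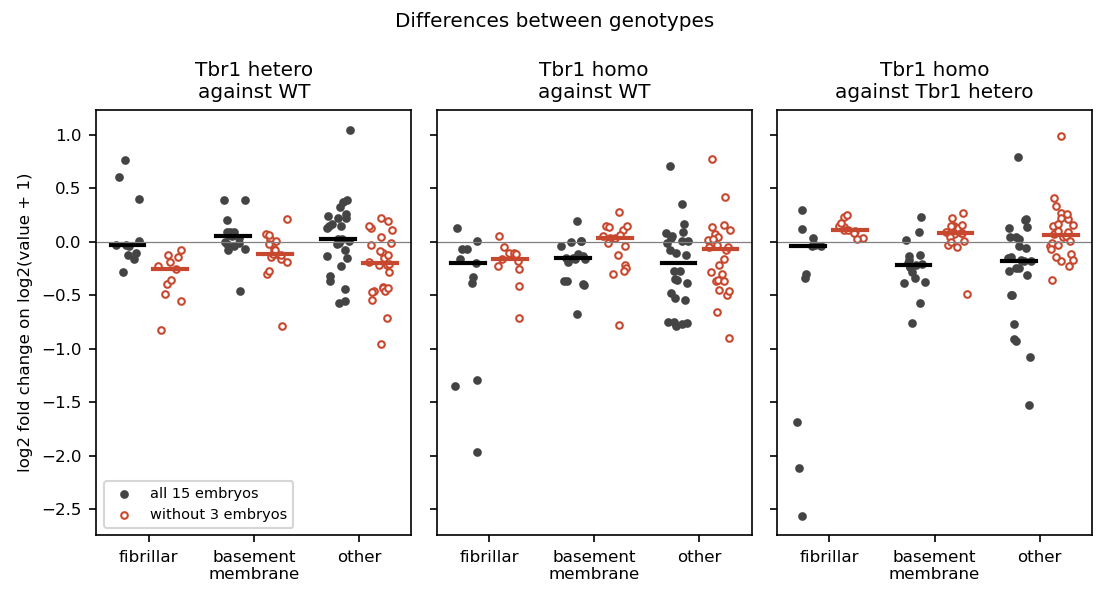
Log2 fold changes of the 54 tested members, on log2(normalized read count + 1), by class in the 3 comparisons. Filled points are fits of all 15 embryos, open points are fits without the 3 embryos of low meningeal score and bars are class medians. The fibrillar median in Tbr1 homo against Tbr1 hetero is -0.04 with all embryos and 0.11 without the 3.

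Col1a1 illustrates the error of single fold changes in the fibrillar class. Its log2 fold change was 0.60 (standard error 1.66) in Tbr1 hetero against WT, -1.96 (1.66) in Tbr1 homo against WT and -2.56 (1.66) in Tbr1 homo against Tbr1 hetero. None passed the exact permutation test of the gene alone (p = 0.833, 0.325 and 0.262). Without the 3 embryos the values were -0.82, -0.71 and 0.11, with standard errors of 0.63, 0.72 and 0.69.

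Col9a1 was the member with the smallest p in both comparisons with WT. It was at 121, 68.1, 79.7, 61.5 and 64.5 in WT, at 63.4, 69.8, 48.0, 47.6 and 54.1 in Tbr1 hetero, and at 52.9, 51.0, 37.6, 45.2 and 40.1 in Tbr1 homo embryos. Every Tbr1 homo embryo was below every WT embryo, and Tbr1 hetero overlapped with both. The means were 79.0 ± 24.6 in WT, 56.6 ± 9.77 in Tbr1 hetero and 45.4 ± 6.65 in Tbr1 homo (SD, n = 5 each). The log2 fold change in Tbr1 homo against WT was -0.75 (standard error 0.19), with p adjusted to 0.408 by limma with Benjamini–Hochberg correction and an exact permutation p of 0.00794, the smallest that 5 against 5 embryos allow. In Tbr1 hetero against WT it was -0.44 (adjusted p = 0.999 by limma, exact permutation p = 0.0635). Without the 3 embryos of low score it was -0.66 in Tbr1 homo against WT (adjusted p = 1.00 by limma).

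The study names Col9a1 among the genes that changed in these same embryos, so its place here is not independent evidence. Its call was for homozygous against WT embryos at an adjusted p under 0.05 (DESeq2 with fdrtool), where limma gave 0.408 here. The study also reports an extracellular matrix term among its called genes and negative enrichment of matrix gene sets in homozygous embryos. Such sets were not tested here. The r of Col9a1 with the meningeal score was 0.31 (adjusted p = 0.671, permutation). The 8 cartilage markers, which include Acan and Matn1, summed to between 57.8 and 213 in WT and between 45.9 and 90.5 in Tbr1 homo embryos (exact permutation p of their score = 0.135), with WT 1 highest in them as in Col9a1, and 5 of the 8 (Matn1, Matn3, Comp, Snorc and Ucma) were at 0 in at least 1 embryo. Their part in the values of Col9a1 was not tested.

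**Figure D5:**
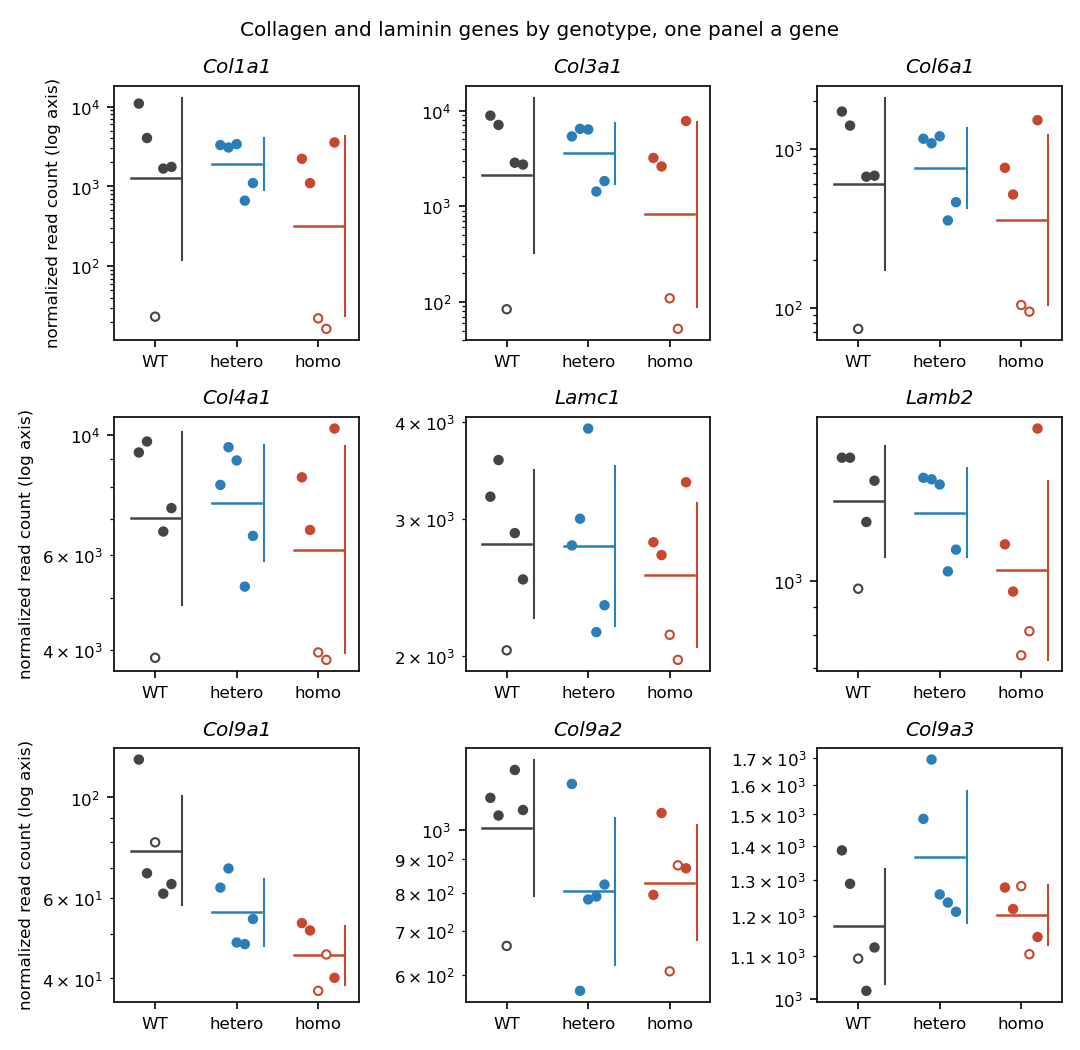
Normalized read counts (log axes) of members of the fibrillar, type VI, basement membrane and collagen IX groups in WT, Tbr1 hetero and Tbr1 homo embryos. Points are embryos, open where the meningeal score was low, and horizontal and vertical lines are the mean and SD of the log2 values (n = 5). In Col9a1 the Tbr1 homo points (37.6 to 52.9) lie below the WT points (61.5 to 121), and in the other panels the genotypes overlap.

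The other chains of collagen IX were far higher than Col9a1, which was at 0.0281 to 0.0753 of Col9a2 per kilobase. Col9a3 had the smallest spread of the members with a mean of at least 50 (SD 0.19 on the log2 scale). It was at 1386, 1288, 1093, 1018 and 1120 in WT, at 1486, 1692, 1258, 1236 and 1211 in Tbr1 hetero, and at 1277, 1219, 1281, 1103 and 1146 in Tbr1 homo embryos. The log2 fold change in Tbr1 hetero against WT was 0.22 (standard error 0.10, adjusted p = 0.999 by limma, exact permutation p = 0.119), and in Tbr1 homo against WT it was 0.04. Tcfl5 overlaps with Col9a3 on the opposite strand, and the reads of such genes cannot be told apart without strand. Col9a2 had means of 1027 ± 215, 827 ± 219 and 843 ± 164 (SD, n = 5), with log2 fold changes of -0.32 and -0.28 relative to WT and overlap in each.

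The remaining members with the smallest p in a comparison overlapped between genotypes. Col23a1, a transmembrane collagen, was at 619, 732, 283, 644 and 350 in WT, at 609, 528, 681, 335 and 369 in Tbr1 hetero, and at 408, 336, 123, 177 and 627 in Tbr1 homo embryos, so that Tbr1 homo 3 and 4 were lowest. Its log2 fold change in Tbr1 homo was -0.79 against WT (standard error 0.39, exact permutation p = 0.175) and -0.77 against Tbr1 hetero, and -0.36 and -0.14 without the 3 embryos of low score. Lamb2, a laminin beta chain of the pia and vessels, was at 1653, 1653, 968, 1271 and 1505 in WT and at 1161, 957, 738, 814 and 1862 in Tbr1 homo embryos (log2 fold change -0.41, standard error 0.22, exact permutation p = 0.190, and -0.25 without the 3 embryos of low score), and the highest value of all 15 was that of Tbr1 homo 5.

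Col19a1, a FACIT collagen of developing neurons and muscle, ranged from 91.7 to 155 in WT, from 102 to 135 in Tbr1 hetero and from 74.1 to 107 in Tbr1 homo embryos, and its log2 fold change in Tbr1 homo against Tbr1 hetero was -0.28 (standard error 0.15, adjusted p = 0.996 by limma, exact permutation p = 0.0238). Col17a1 ranged from 7.04 to 23.0 in WT, from 7.57 to 22.3 in Tbr1 hetero and from 6.97 to 42.2 in Tbr1 homo embryos, a log2 fold change of 0.79 in Tbr1 homo against Tbr1 hetero (standard error 0.48). Col6a6 ranged from 40.4 to 108 in WT, from 23.3 to 68.4 in Tbr1 hetero and from 28.9 to 90.8 in Tbr1 homo embryos, with a log2 fold change of -0.56 (standard error 0.36) in Tbr1 hetero against WT. None of these passed correction over all genes by limma.

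Genes that process collagens were compared from a list of 30, which was chosen with earlier results of these data known. Of these, 1 was called lower in Tbr1 homo, both against WT and against Tbr1 hetero. Over all genes, 0.127 and 0.0788% were called in these comparisons. Adamts3, a procollagen N-propeptidase, was at 1517, 1679, 2082, 1201 and 1865 in WT, at 1186, 1438, 1260, 1579 and 1310 in Tbr1 hetero, and at 712, 835, 938, 847 and 754 in Tbr1 homo embryos. All Tbr1 homo embryos lay below all embryos of the other genotypes. The log2 fold change was -1.01 against WT (standard error 0.13, adjusted p = 0.00298, limma with Benjamini–Hochberg correction), which held in all 25 alternatives. Against Tbr1 hetero it was -0.73 (adjusted p = 0.0460, limma), which held in 12 of 25. That call was lost without any single embryo of those genotypes (adjusted p between 0.0624 and 0.165, limma). It was also lost without the 3 embryos of low score (adjusted p = 0.0558, limma). In Tbr1 hetero against WT the log2 fold change was -0.28 (adjusted p = 0.999 by limma). The study already lists Adamts3 among the genes lower in these same homozygous embryos, so this result is not independent evidence. Its qRT-PCR primers include Adamts3. By that method it reports changes of Tbr1 and Reln, while the other genes were not borne out, although their directions were similar. Adamts2, a related propeptidase, had a log2 fold change of -0.31 in Tbr1 homo against WT and did not pass.

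The other 29 genes of the list, among them the prolyl and lysyl hydroxylases, the chaperone Serpinh1 and the lysyl oxidases, passed in no comparison (limma). The list had 2 genes higher and 28 lower in Tbr1 homo against WT, with a median log2 fold change of -0.12, beside -0.00 for all genes. In Tbr1 hetero against WT it had 15 and 15, with a median of -0.00. How far these medians rest on the 3 embryos of low meningeal score was not tested. Lox, the crosslinking enzyme of fibrillar collagen and elastin, had a wide spread (SD 2.20 on the log2 scale), with 15.2 to 775 in WT and 10.7 to 899 in Tbr1 homo embryos. The enzymes of the secretory pathway varied little, such as P4hb (SD 0.08) and Plod2 (SD 0.08).

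Of 7 partners of the basement membrane, 0 passed in any comparison by limma and 0 had an unadjusted p under 0.05. Nid2, a nidogen that links laminin and type IV collagen, ranged from 484 to 1880 in WT and from 363 to 2054 in Tbr1 homo embryos, whereas Agrn, a heparan sulfate proteoglycan, had an SD of 0.05 on the log2 scale. Of 14 collagen and laminin receptors, 0 passed in any comparison and 0 had an unadjusted p under 0.05. Their medians were 0.00 in Tbr1 hetero against WT and -0.09 in Tbr1 homo against WT, and Adgrg1, the collagen III receptor of radial glia, had a log2 fold change of -0.00 in the latter. Overlapping genes in the table leave Lama3, Lamb3, Lamc1 and Col18a1 uncertain in the same way as Col9a3, and the depth behind low members such as Col4a3 and Col17a1 is unknown, since the table gives no reads.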

How the data were processed

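RNA-Seq libraries of 15 embryos (TruSeq RNA, paired-end reads) were processed by the authors with Salmon 0.11.2 on GRCm38 with GC bias correction, imported to genes with tximport in R 3.5.3 and divided by DESeq2 1.22.2 size factors. What the authors deposited is a scaled signal for each gene in each embryo, called the normalized read count here, and not whole reads, so that no count model was fitted and sequencing depth was not analysed here. Replicate numbers, genotypes and sexes came from the labels, and nothing says whether embryos shared a litter. No sample was left out.

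Of the 19475 genes, 19469 were matched to GENCODE M21 for symbols and coordinates. Differences were fitted with limma 3.58.1 in R 4.3.3 (lmFit and trended eBayes) on log2(value + 1) for the 16507 genes whose mean reached 5, with all 15 embryos in one fit, and adjusted with the Benjamini–Hochberg correction over all of them (threshold 0.05). Fold changes on this scale understate the change of low genes. For a gene taken alone, an exact permutation test (two-sided) of 5 against 5 embryos was used. The fit was tested on simulated data.

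The correlation with the meningeal score was planned over all 15 embryos with correction over the members. It was changed, after the data were seen, to the 12 embryos with a score of at least 5, because 3 lay apart, and to correction over 16493 genes.

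The members, classes and lists were chosen with earlier results of these data known. Members named were, by rule, those past the threshold, the 4 with the smallest p in each comparison, the 3 highest per kilobase in each class, those without overlap between genotypes, Col9a1, the type IV pairs, and those with the largest and the smallest SD. Others, such as Col5a1, Col2a1, Col6a2 and Lama4, and the pathway genes named, were picked once values were known. A member of the counts is not reported here by itself.

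The alternatives tried were pseudocounts of 0.1 and 10, a minimum mean of 50 or none, rescaling by upper quartile or by quantiles, covariates for sex or for the meningeal, Hox or vascular score, the replicate block, robust eBayes, a fit of only the 2 genotypes compared, a null fitted to the data, and each embryo left out in turn. Leaving out the 3 embryos of low meningeal score at once was added after the data were seen.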

Additional observations from a re-analysis of the deposited data

Results flagged for a closer look

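The normalized read count of Col4a3 in WT 5 was 92.0, where the next highest of the 5 WT embryos was 29.5. It stands apart from the other WT embryos by Dixon's criterion for 5 values (gap of 0.771 of the range, critical value 0.71). Among 57 groups of 5 embryos tested in this way it was the sole value to do so, and chance alone gives about 1 in 20 groups. Those groups cover only the 19 members named by rule, and the other members were not screened. Wide gaps exist among the latter too, as in Col14a1, at 481 in WT 1 and at most 105 in the other WT embryos.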

How the results depend on the processing

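No member passed an adjusted p of 0.05 in any of the 3 comparisons under any of the 25 alternatives of each (limma), and the smallest adjusted p was 0.0639, for Col9a1 in Tbr1 homo against WT with the empirical null. Of 1495 alternative values of the members named by rule, 1488 stayed on the same side of the threshold, some of them with the opposite sign. The sign turned, for example, in 8 of 25 alternatives for Col4a4 in Tbr1 homo against WT. For Col19a1 in Tbr1 hetero against WT it turned in 7 of 25. The call was lost by 5 correlations with the meningeal score (Col1a1, Col4a5, Col4a6, Lamb2 and Lamc1) without the 2 farthest embryos, and 2 of Col23a1 gained one. Without those 2 embryos, 10 of the 22 calls over all members were left, and over all genes there were 142 positive calls beside 545. Leaving out single embryos moved the median log2 fold change of the members between -0.16 and 0.12 in Tbr1 hetero against WT, between -0.36 and -0.06 in Tbr1 homo against WT, and between -0.32 and -0.09 in Tbr1 homo against Tbr1 hetero. In Tbr1 homo against WT, members at an unadjusted p under 0.05 numbered 11 without WT 3 and between 1 and 3 without any other embryo. Of all 16507 genes, 791 had such a p without WT 3, and between 439 and 714 without any other embryo. In Tbr1 homo against Tbr1 hetero without Tbr1 homo 5, 4 members and 842 of all genes had such a p. Over all genes, calls in Tbr1 homo against WT were 21, and 42 with the empirical null, 12 with those genotypes alone, and 7 without the 3 embryos of low meningeal score. In Tbr1 homo against Tbr1 hetero calls were 13, and 21 with the Hox score, 2 with the replicate block, 6 to 8 without single embryos, and 0 without the 3 embryos (492 genes at an unadjusted p under 0.05). The cause was not tested. The replicate block left 0 members called and the members' medians at 0.01, -0.16 and -0.19. Same-numbered embryos share their sex and a number, and their deviations correlated with r between -0.23 and 0.51, so that the numbers were not taken as pairs.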
